A study of Mus musculus with 8 samples.

Results

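Tpx2, the 3 Aurora kinases, their partner proteins and 2 microtubule regulators of the spindle poles were followed in mature (MII) oocytes of young and old mice. The 10 genes were chosen by symbol, namely Tpx2, Aurka, Aurkb, Aurkc, Incenp, Birc5, Cdca8, Bora, Tacc3 and Ckap5, and all 10 were found among the 8898 genes measured in ribosome-bound mRNA, the 10530 genes measured in total mRNA and the 8537 genes measured in both. The oocytes came from RiboTagF/F;Zp3-Cre females of the C57BL/6 strain, in which Cre under the Zp3 promoter switches on an HA-tagged ribosomal protein in growing oocytes, and every group carried these alleles. Young females were 1 month old. Old females were retired breeders of 12 to 15 months, so that age and breeding history cannot be told apart. Ovulation was induced in both ages with PMSG (5 IU) followed after 48 h by hCG (10 IU), and oocytes were collected 13 h after hCG. Each of 4 pools (2 young and 2 old) held 200 oocytes and gave an HA library (mRNA bound to tagged ribosomes) and an input library (total mRNA, from 10% of the same lysate).

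Levels are CPM, reads on a gene scaled to library size, after TMM normalization, with the 4 HA libraries and the 4 input libraries normalized apart. The deposited values could be turned back into whole reads (100% of values in each library, within 0.01 reads), and between 37817382 and 60052814 reads were counted per library. The members were well above the floor of 3 reads, which corresponded to at most 0.111 CPM. Their lowest number of reads was 44, for Aurkb in an old HA library, and their highest was 59856, for Ckap5 in a young HA library. No molecular identifiers are described for these libraries, so the floor covers counting error only.

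The old HA libraries stood apart from the young ones. Their TMM factors, the scaling applied to library size, were 0.896 and 0.715, against 1.30 and 1.20 in young HA libraries, and 2.89% and 4.11% of genes of the table had no reads in them, against 0.112% and 0.865%. In input, old libraries had TMM factors of 0.958 and 0.915 and young libraries of 1.15 and 0.994, and 2.98% and 3.06% of genes had no reads in old, against 0.380% and 1.56% in young libraries. These values move with age and their part in the differences between ages was not tested. All 9 oocyte markers searched, among them Zp3, Gdf9 and Bmp15, were in both tables. Their summed level in HA was higher in old (11403 to 17821 CPM) than in young libraries (10533 to 11263 CPM). In input it was lower in old (8535 to 8970 CPM) than in young libraries (9689 to 9740 CPM). Of 12 cumulus and granulosa cell markers, 4 were in the HA table, with a summed level of 88.8 to 144 CPM in old and 199 to 207 CPM in young libraries, and Amh and Foxl2 were in neither table. In input, 9 of the 12 were present, at 157 to 314 CPM in old and 198 to 275 CPM in young libraries. Their part in the results was not tested. Of 5 blood markers none was in either table, and of 5 oviduct markers only Epcam was present, at up to 57.6 CPM in old and 3.29 CPM in young input.

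Fully grown oocytes lack centrioles, and the meiotic spindle is assembled from acentriolar microtubule organising centres. TPX2 is released by Ran-GTP near chromosomes, promotes microtubule nucleation and both activates Aurora kinase A and targets it to the spindle. Aurora kinases B and C are alternative catalytic subunits of the chromosomal passenger complex, which also contains INCENP, survivin and borealin and corrects faulty attachments of kinetochores, and Aurora kinase C is found mostly in germ cells. Because transcription is silent during maturation, the supply of these proteins depends on the translation of stored mRNAs, which is often switched on through cytoplasmic polyadenylation elements (CPEs) in the 3'-UTR.

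The CPE letters TTTTAT and TTTTAAT were searched on the transcript strand of each member's longest 3'-UTR in GENCODE release M21 (GRCm38). At least one was found in 6 of 10 members, and 4 (Incenp, Cdca8, Bora and Tacc3) held none. Of 8208 genes of the HA table with an annotated 3'-UTR, 70.3% held one, but these 3'-UTRs differ in length. In the last 100 bases, a window of equal length, 4 of 10 members (Aurka, Aurkb, Aurkc and Ckap5) held one, against 21.1% of 8083 genes. The motif nearest to the 3' end is shown for each member that held one, because its distance from the end differs between Tpx2 and Birc5 on one side and the kinases and Ckap5 on the other. Capitals mark the motif and 10 bases are given on each side.
Tpx2: gatttcttgaTTTTATatatttggtt
Aurka: aaaggctattTTTTATgttggagttc
Aurkb: aagaacaacaTTTTATaataaagtct
Aurkc: ttgttttctcTTTTATgaagtgatgt
Birc5: ataactttccTTTTAATgatttatctt
Ckap5: tttaagagacTTTTATaaataaagtt
These windows lie on GRCm38 at chr2:152894610-152894635 (plus strand, Tpx2), chr2:172356239-172356264 (minus strand, Aurka), chr11:69051618-69051643 (plus, Aurkb), chr7:7003038-7003063 (plus, Aurkc), chr11:117855102-117855128 (plus, Birc5) and chr2:91620627-91620652 (plus, Ckap5). In Ckap5 and Aurkb the motif starts 28 and 37 bases from the 3' end and 7 and 6 bases before the last polyadenylation signal (AATAAA or ATTAAA). In Aurkc these distances are 44 and 18 bases. The Tpx2 motif starts 702 bases from the end of a 3'-UTR of 1630 bases, 686 bases before the last polyadenylation signal, and the Birc5 motif 632 bases from the end of one of 2936 bases. In Aurka, the motif lies 65 bases from the end, and the only polyadenylation signal found lies upstream of it, 233 bases from the end. These are matches of letters and were not tested here for binding or use. For Tpx2, the paper assayed binding of its mRNA to the CPE-binding protein CPEB1 in immature oocytes of young mice. It also reported no difference between ages in the translation of an injected reporter with the Tpx2 3'-UTR during maturation.

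Tpx2 (ENSMUSG00000027469.16) is on chromosome 2, from 152847964 to 152895321, on the plus strand. In HA libraries it was at 575 and 843 CPM in old, against 338 and 254 CPM in young pools. Both old values exceeded both young values, and the ratio of the means was 2.39. In input it was at 150.0 and 276 CPM in old, against 280.0 and 172 CPM in young pools, and the ages overlapped. The translation efficiency (TE, HA CPM over input CPM of the same pool) was 3.83 and 3.05 in old, against 1.21 and 1.48 in young pools. The old and young TE values did not overlap, and the ratio of the means was 2.57. Among the 10 members, Tpx2 had the smallest p in both HA and TE.

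The ages were compared with limma over all genes of a table, on log2(CPM + 1) and with Benjamini-Hochberg adjustment. On this scale, changes of low genes are understated. In HA, 0 of 10 members had an adjusted p under 0.05, as did 0% of all 8898 genes, and the smallest adjusted p of a member was 0.299 (Tpx2). At an unadjusted p under 0.05 in limma, 1 member (Tpx2) was higher and 0 were lower in old oocytes, against 4.28% and 10.5% of all genes. For Tpx2 this unadjusted p was 0.0238 in limma, and it was no longer under 0.05 with libraries rescaled to the same sum, after quantile normalization, or without old replicate 2 or either young replicate. With edgeR's quasi-likelihood test on the recovered reads, 1 member (Tpx2) was higher (4.54% of all genes) and 0 were lower (8.96%) at an unadjusted p under 0.05. With edgeR's likelihood ratio test these numbers were 0 (4.48%) and 0 (11.8%), and with DESeq2 0 (7.6%) and 0 (9.7%). After adjustment 0 of 10 members passed in each of these tests, against 3.32% of all genes in the likelihood ratio test, 5.71% in DESeq2 and 0% in the quasi-likelihood test. In input, 0 of 10 members had an adjusted p under 0.05, against 0.0095% of all genes, and 0 had an unadjusted p under 0.05 in either direction by any of these tools. The background of unadjusted calls in input, higher and lower, was 2.71% and 3.48% in limma, 3.16% and 4.12% in the likelihood ratio test, 2.47% and 3.04% in the quasi-likelihood test and 4.78% and 4.43% in DESeq2. After adjustment it was 0.475% in the likelihood ratio test and 1.08% in DESeq2. In TE, 0 of 10 members and 0% of 8537 genes had an adjusted p under 0.05. At an unadjusted p under 0.05 in limma, 1 member (Tpx2) was higher and 0 were lower, against 2.98% and 3.51% of all genes. For Tpx2 this unadjusted p was 0.0305 in limma, and several alternatives took it above 0.05. It was 0.122 with libraries rescaled to the same sum, 0.150 after quantile normalization, 0.202 without young replicate 1 and 0.103 without young replicate 2. With the variance trend of limma set on the mean ratio instead of on mean expression, chosen after seeing the data, it was 0.104. In tests of the interaction of age and fraction over the 8 libraries it was 0.0561 in limma and 0.0507 in edgeR. An exact two-sided permutation test on the values of 1 gene, with 2 pools of each age, gives at the least a p of 0.33.

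Tpx2 had a log2 TE difference of 1.35, with a standard error of 0.52 and an adjusted p of 0.739 from limma. HA and input were normalized apart, so that a level of TE carries an unknown constant, and HA was not tested against input within an age. Under the other scalings this difference was 1.54 with DESeq2's size factors (the median log2 ratio), 0.90 when all libraries were rescaled to the same sum and 0.84 after quantile normalization, and the last 2 had an unadjusted p above 0.05. In HA, both old Tpx2 values also exceeded both young values under all 3 other scalings. No other member kept that order in HA under all of them.

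**Figure D1:**
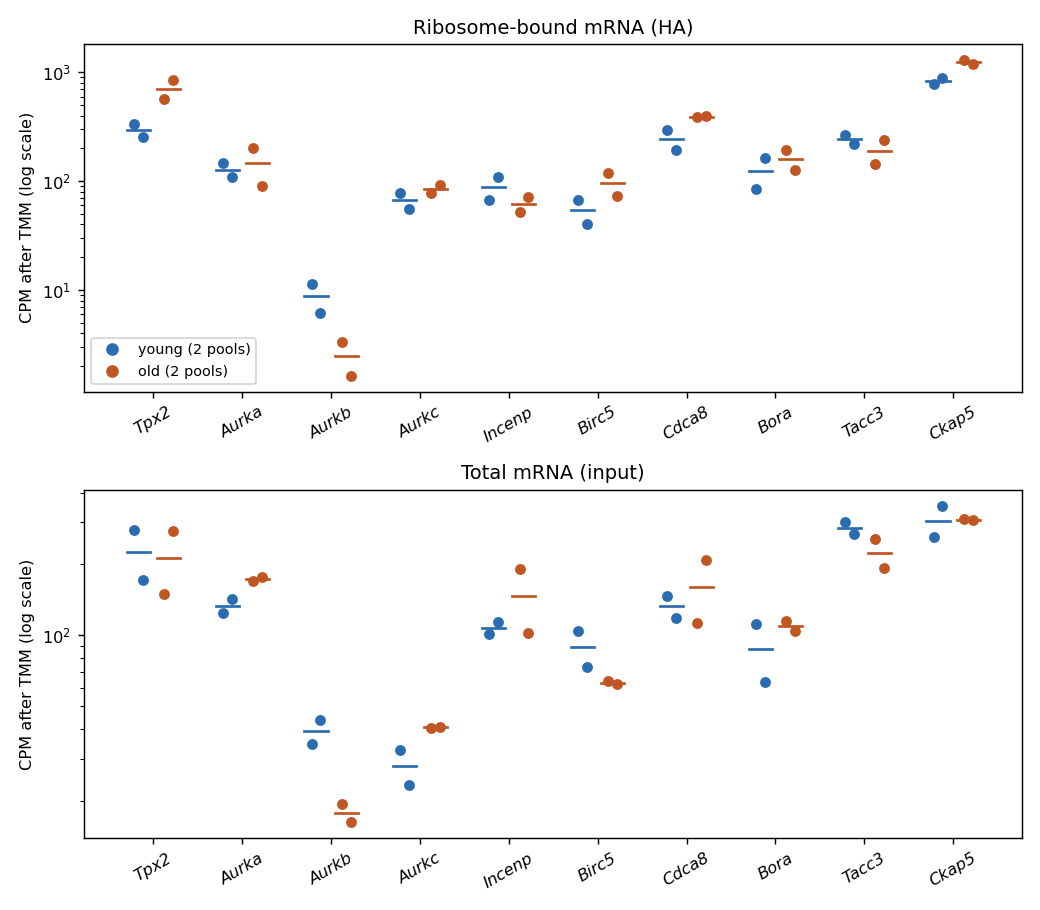
CPM of each of the 10 members (log axis) in ribosome-bound (HA, top) and total mRNA (input, bottom), with 1 point per pool and a line at the mean of the 2 pools of an age. Old Tpx2 values (575 and 843 CPM) lie above the young ones (338 and 254 CPM) in HA, and Aurkb is the lowest member in HA in both ages.

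Aurka (ENSMUSG00000027496.15, chromosome 2, 172356190 to 172370535) encodes Aurora kinase A, which acts at the spindle poles. Its input level was 169 and 177 CPM in old, against 124 and 142 CPM in young pools, so that both old values exceeded both young values. In HA it was at 203 and 90.7 CPM in old, against 146 and 109.8 CPM in young pools. The old HA values thus lay on either side of the young ones, and the log2 HA difference of 0.10 (standard error 0.62) turned to -0.53 with libraries rescaled to the same sum. TE of Aurka was 0.859 ± 0.488 in old and 0.976 ± 0.290 in young pools (SD, n = 2 each). Bora (ENSMUSG00000022070.6, chromosome 14, 99046222 to 99074540), which encodes a cofactor that lets Aurora A activate the kinase PLK1, overlapped between ages in HA, input and TE. It was at 192 and 128 CPM in old, against 85.4 and 162 CPM in young HA libraries.

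In input, Aurkb was lower and Aurkc was higher in both old pools, and neither passed the test. Aurkb (ENSMUSG00000020897.12, chromosome 11, 69045647 to 69051664) was at 19.4 and 16.2 CPM in old, against 34.6 and 44.0 CPM in young input libraries. In HA it was at 3.30 and 1.63 CPM in old, against 11.4 and 6.10 CPM in young libraries. Old values lay below young values in both fractions. On the log2 scale they differed by -1.09 in input (standard error 0.62) and by -1.48 in HA (standard error 1.33), with adjusted p-values of 0.799 and 0.746 from limma. TE of Aurkb was 0.170 and 0.100 in old, against 0.330 and 0.139 in young pools, which was the lowest of the 10 members in each pool. Over all genes with input reads in each pool, the median TE was 0.577 to 0.730.

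Aurkc (ENSMUSG00000070837.5, chromosome 7, 6995300 to 7003091) was at 40.6 and 41.1 CPM in old, against 32.7 and 23.3 CPM in young input libraries. In HA it was at 78.3 and 92.3 CPM in old, against 77.3 and 56.0 CPM in young libraries. Both old values exceeded both young values in each fraction. The log2 differences were 0.55 in input and 0.36 in HA, the latter turning to -0.27 when libraries were rescaled to the same sum and to -0.074 after quantile normalization. TE was 1.93 and 2.25 in old, against 2.36 and 2.40 in young pools.

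The other subunits of the chromosomal passenger complex are Birc5, Cdca8 and Incenp, and only Birc5 of these had no overlap between ages in HA, input and TE. Birc5 (ENSMUSG00000017716.15, chromosome 11, 117849251 to 117855743) encodes survivin. It was at 64.2 and 62.0 CPM in old, against 105 and 73.4 CPM in young input libraries, with both old values lower. In HA it was at 119 and 73.7 CPM in old, against 67.4 and 40.3 CPM in young libraries, with both old values higher. TE of Birc5 was 1.85 and 1.19 in old, against 0.643 and 0.550 in young pools, without overlap, and the ratio of the means was 2.54. The log2 HA difference of Birc5 was 0.83, and it was 0.20 when libraries were rescaled to the same sum and 0.43 after quantile normalization, where the old and young HA values overlapped. The log2 TE difference of Birc5, 1.30 with a standard error of 0.85, had an adjusted p of 0.758 from limma and ranged from 0.85 to 1.48 over the other scalings.

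Cdca8 (ENSMUSG00000028873.16, chromosome 4, 124918465 to 124939311), which encodes borealin, was at 385 and 400.2 CPM in old, against 294 and 194 CPM in young HA libraries. The old HA values lay above the young ones, whereas input (113 and 208 CPM in old, 147 and 118 CPM in young) and TE overlapped. Its log2 HA difference of 0.72 (standard error 0.45) was 0.08 when libraries were rescaled to the same sum and 0.10 after quantile normalization. Incenp (ENSMUSG00000024660.8, chromosome 19, 9872296 to 9899551) encodes the scaffold that binds and activates the kinase. It was at 51.7 and 71.3 CPM in old, against 66.8 and 108 CPM in young HA libraries, and at 191 and 102 CPM in old, against 102 and 114 CPM in young input libraries. Incenp overlapped between ages in both fractions, and its TE was 0.485 ± 0.303 in old and 0.805 ± 0.208 in young pools (SD, n = 2 each).

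**Figure D2:**
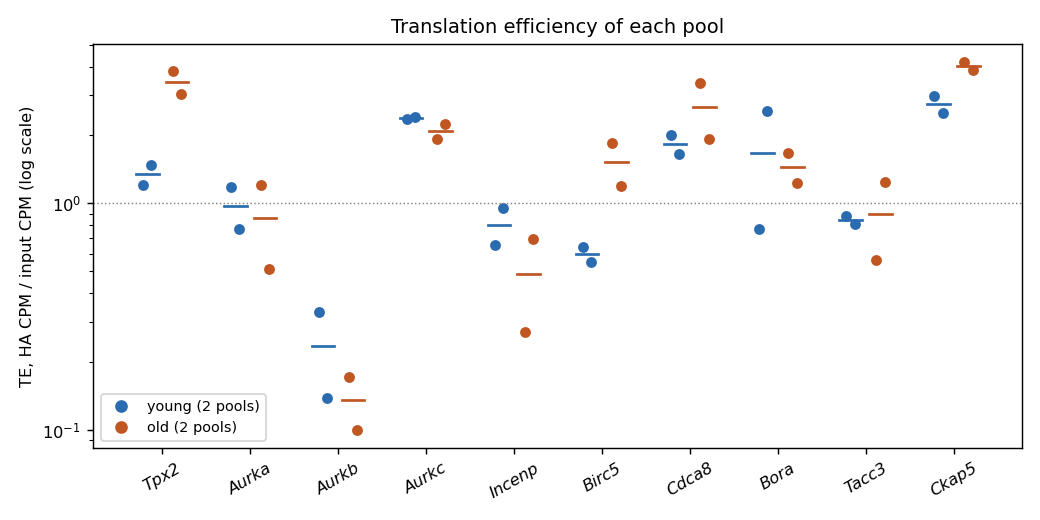
Translation efficiency (HA CPM over input CPM, log axis) of each member, with 1 point per pool, a line at the mean of the 2 pools of an age and a dotted line at 1. Old pools lie above young pools for Tpx2, Birc5 and Ckap5 and below them for Aurkc, and the lowest values are those of Aurkb (0.100 to 0.330).

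Ckap5 (ENSMUSG00000040549.16, chromosome 2, 91526762 to 91620664) encodes a microtubule polymerase that is brought to the spindle by its partner TACC3. With 1305 and 1183 CPM in old and 774 and 883 CPM in young HA libraries, it had the highest HA CPM of the members, and both old values exceeded both young values. Its input level differed little between the means of the ages, at 308 ± 3.65 CPM in old and 306 ± 65.6 CPM in young pools (SD, n = 2 each). TE was 4.19 and 3.87 in old, against 2.98 and 2.51 in young pools, without overlap. For Ckap5 the log2 HA difference, 0.59 with a standard error of 0.35 and an adjusted p of 0.527 from limma, turned to -0.052 when libraries were rescaled to the same sum and to -0.15 after quantile normalization. The log2 TE difference of 0.56 was 0.11 and -0.030 under these scalings.

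Tacc3 (ENSMUSG00000037313.16, chromosome 5, 33658128 to 33678995), a substrate of Aurora A, was at 254 and 193 CPM in old, against 302 and 269 CPM in young input libraries, with both old values lower. In HA it was at 143 and 238 CPM in old, against 265 and 219 CPM in young libraries, and the ages overlapped. Its TE also overlapped, at 0.899 ± 0.480 in old and 0.846 ± 0.0466 in young pools (SD, n = 2 each). Reads were counted over whole genes, introns included, and without regard to strand. Tacc3 and Cdca8 each overlap a gene on the opposite strand (Tmem129, which is in neither table, and 9930104L06Rik) over 289 and 232 exonic bases. Ckap5 overlaps Snord67 on its own strand over 93 exonic bases, and Tpx2 and Incenp each overlap 1 gene (Mir5622 and AC132253.8) outside exons. Reads in these stretches cannot be assigned to 1 gene.

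In the old HA libraries, which stood apart in TMM factor and in genes without reads, both values exceeded both young values for 5 of 10 members (Tpx2, Aurkc, Birc5, Cdca8 and Ckap5), against 17.2% of all genes of the table and 24.3% of the 5691 genes with a mean of at least 10 CPM. This number was 1 (Tpx2) with libraries rescaled to the same sum, where 7.51% of all genes had that order, and 1 (Tpx2) after quantile normalization (16.7% of all genes). Both old HA values lay below both young values for 1 member (Aurkb), against 24.7% of all genes. In TE, old pools lay above young pools for 3 of 10 members, against 16.7% of genes, and below them for 1 (22.8%). In input, 2 of 10 members (Aurka and Aurkc) were higher in both old pools (16.4% of all genes) and 3 (Aurkb, Birc5 and Tacc3) were lower (18.9%). Among genes with a mean of at least 10 CPM, these shares were 14% below in HA, 22% above and 15.1% below in TE, and 19.8% above and 15.4% below in input. The median log2 HA difference of the members was 0.39, against -0.14 over all genes. Among genes with a mean of at least 10 CPM, which leaves out Aurkb, it was 0.41, against 0.18. With libraries rescaled to the same sum, it was -0.25 against -0.68, after quantile normalization -0.14 against -0.053, and with the median log2 ratio 0.59 against 0.047. Of the 10 members, 7 had a log2 HA difference above 0, against 45.9% of all genes. The share of all genes is given for the deposited TMM values only. The number of members was 3 when libraries were rescaled to the same sum and 3 after quantile normalization, where the median over all genes was -0.68 and -0.053. Without old replicate 1 it was 6, and without old replicate 2 it was 7, with medians over all genes of -0.34 and -0.071. In TE 5 of 10 were above 0 (47.1% of all genes) and in input 6 of 10 (48.6%), and the median was 0.0034 in TE, against -0.10 over all genes, and 0.12 in input, against -0.026. Among genes with a mean of at least 10 CPM the order turned in TE, with a median of 0.029 for the members and 0.13 for all genes.

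**Figure D3:**
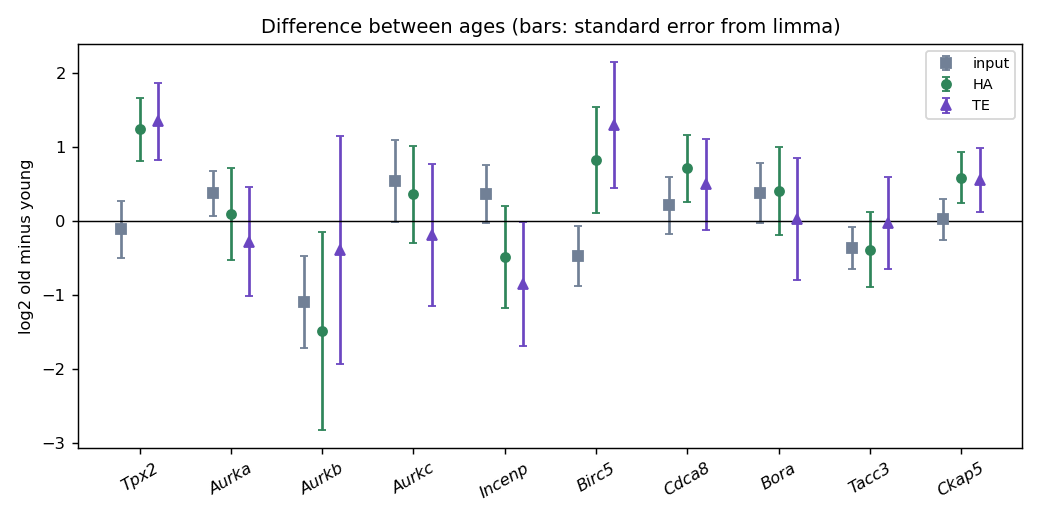
Old minus young difference on the log2(CPM + 1) scale for input, HA and TE of each member, with the standard error from limma as bars. For Tpx2 the HA (1.24) and TE (1.35) differences lie above 0 and the input difference (-0.11) lies near it, whereas for Birc5 input (-0.47) and HA (0.83) lie on opposite sides of 0.

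**Figure D4:**
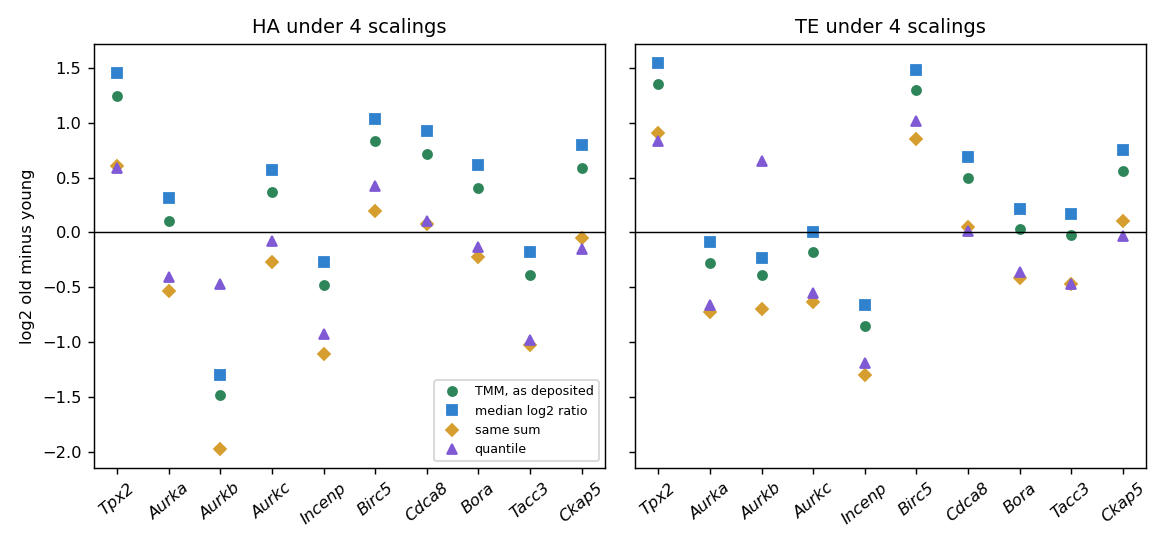
Old minus young difference (log2) of each member in HA (left) and TE (right) under 4 scalings of the libraries, the deposited TMM values, the median log2 ratio, the same sum and quantile normalization. Tpx2, Birc5 and Cdca8 lie above 0 in HA and TE under the 4 scalings. Aurka, Aurkc, Bora and Ckap5 change sign in HA, and Aurkb, Aurkc, Bora, Tacc3 and Ckap5 change sign in TE.

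Ratios of 2 members within the same library do not depend on a scaling factor for each library. Quantile normalization is not such a factor and can change them. They were computed after seeing the values above and carry no test. The ages did not overlap for 25 of the 45 pairs of members in HA, against 40.2% of all pairs of genes with reads in each HA library, and for 22 of 45 in input, against 34.7%. The ratio of Aurkb to Aurkc was 0.0422 and 0.0176 in old, against 0.147 and 0.109 in young HA libraries. In input, it was 0.477 and 0.395 in old, against 1.06 and 1.89 in young libraries. Old pools thus had the lower ratio of Aurkb to Aurkc in both fractions. After quantile normalization, the log2 HA difference was -0.47 for Aurkb and -0.074 for Aurkc, against -1.48 and 0.36 with the deposited values.

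The ratio of Tpx2 to Aurka was 2.31 and 2.32 in the young HA libraries, and it was 2.83 and 9.29 in the old ones. In input it overlapped between ages, at 0.888 and 1.56 in old, against 2.26 and 1.21 in young libraries. Relative to Incenp, Cdca8 was at 7.45 and 5.62 in old, against 4.39 and 1.79 in young HA libraries, and Birc5 was at 2.29 and 1.03 in old, against 1.01 and 0.372 in young. The Birc5 to Incenp ratio went the other way in input, at 0.336 and 0.609 in old, against 1.03 and 0.645 in young libraries. Tacc3 relative to Ckap5 was at 0.109 and 0.202 in old, against 0.343 and 0.248 in young HA libraries, without overlap, and overlapped in input.

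**Figure D5:**
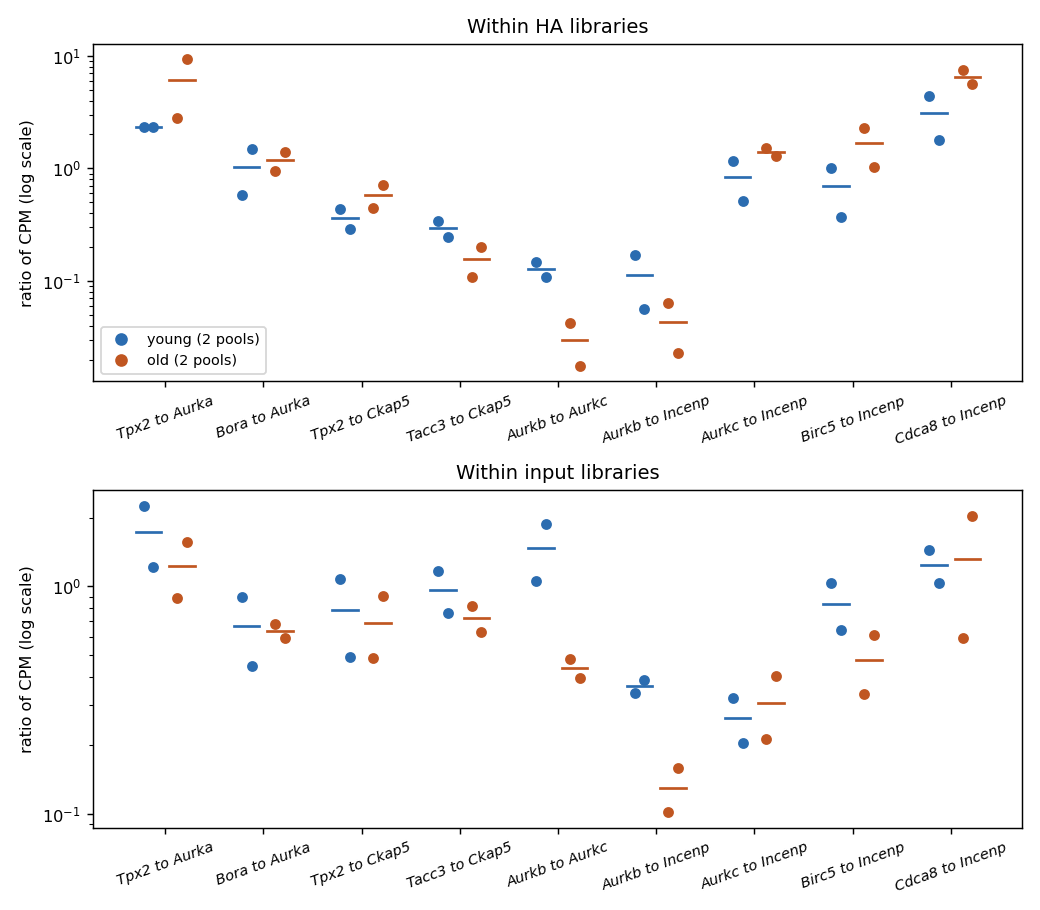
Ratios of the CPM of 2 members within the same library (log axis) in HA (top) and input (bottom), with 1 point per pool and a line at the mean of the 2 pools of an age. The Aurkb to Aurkc ratio is lower in old pools in HA (0.0422 and 0.0176 against 0.147 and 0.109) and in input (0.477 and 0.395 against 1.06 and 1.89).

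Levels were compared between members as CPM per kilobase of annotated exons (GENCODE release M21). Because introns were counted too, this length is not the whole length over which reads were counted, and the share of intronic reads is unknown for each gene. In young input, Tacc3 was highest at 80.3 CPM per kilobase, above Aurka (52.6), which overlapped with Tpx2 (48.3). Aurkb had the lowest mean at 13.3, and its pools overlapped with those of Bora (16.9). In young HA, Ckap5 led at 87.5 CPM per kilobase, and its pools did not overlap with those of Tacc3 (68.2), which overlapped with Tpx2 (63.3). In old HA, Tpx2 was first at 152 CPM per kilobase, overlapping with Ckap5 (131), and Cdca8 followed without overlap at 75.9. Aurkb was last in old HA at 0.837 CPM per kilobase, without overlap with Incenp (14.2). Between the kinases, Aurkc was at 43.8 and Aurkb at 2.97 CPM per kilobase in young HA, against 18.4 and 13.3 in young input. Among all genes of the HA table, ranked by mean CPM, Tpx2 stood at percentile 93.4 in young and 96.0 in old libraries, and Aurkb at 33.7 and 21.8.

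Other genes of spindle assembly were counted in 4 lists, and in HA, input and TE no gene of any list passed the adjustment in limma. Of 18 measured genes of the spindle pole and microtubule organising centres, 1 was higher and 1 was lower in old HA libraries at an unadjusted p under 0.05 (background 4.28% and 10.5%). Akap9, which encodes a scaffold that binds the pericentriolar matrix, was at 466 and 233 CPM in old, against 113 and 98.5 CPM in young HA libraries (log2 difference 1.63, adjusted p = 0.297 from limma). Mzt1, which encodes a small subunit of the gamma-tubulin complex, was at 0.119 and 1.15 CPM in old, against 12.5 and 16.3 CPM in young HA libraries. Its input was 22.9 and 46.1 CPM in old, against 21.8 and 6.05 CPM in young pools. In TE, 0 of 18 were higher and 1 was lower (Mzt1) at an unadjusted p under 0.05 from limma, against 2.98% and 3.51% of all genes. In input, 1 of 19 was higher and 0 were lower, against 2.71% and 3.48%. In this list, 12 of 18 log2 HA differences were above 0, against 45.9% of all genes. The median was 0.34, against -0.14 over all genes.

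Of 15 measured genes for Ran-dependent and microtubule-binding factors, 1 was higher and 0 were lower in old HA at an unadjusted p under 0.05 (background 4.28% and 10.5%), and 1 was higher (Mapre2) and 1 lower (Tacc1) in TE (2.98% and 3.51%). In input, 1 of 16 was higher (Tacc1) and 1 lower (Mapre3), against 2.71% and 3.48%, and Mapre3 is named after its values were seen. Mapre2, which encodes a protein that tracks growing microtubule ends, was at 1018 and 1504 CPM in old, against 452 and 198 CPM in young HA libraries, with 472 and 694 CPM in old and 541 and 571 CPM in young input. Its TE was 2.16 and 2.17 in old, against 0.836 and 0.347 in young pools, differing by 2.00 on the log2 scale with a standard error of 0.52 and an adjusted p of 0.739 from limma. Tacc1, a relative of Tacc3, had a TE of 0.0271 and 0.0101 in old and of 0.919 and 0.499 in young pools (log2 difference -4.80, adjusted p = 0.739 from limma). Its input was higher in both old pools, at 147 and 125 CPM against 50.9 and 54.0 CPM, and its HA level was lower, at 3.99 and 1.26 CPM against 46.8 and 26.9 CPM. The median log2 HA difference of the list was 0.26.

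All 4 measured augmin subunits, of a complex that branches new microtubules from old ones, had log2 HA differences below 0 (median -1.23), against 54.1% of all genes, and 0 of 4 had an unadjusted p under 0.05. Old replicate 2 was the lowest of the 4 HA libraries for each of them (Haus1, Haus4, Haus6 and Haus8), with 0.0370, 11.3, 32.2 and 0 CPM. Old replicate 1 lay above both young libraries for Haus4 (119.7 CPM, against 85.1 and 88.6) and Haus8 (9.76 CPM, against 6.27 and 7.58). Haus1 was the 1 subunit with both old values below both young ones. Its old replicate 2 value, like that of Haus8, lay below the floor of 3 reads (0.111 CPM in that library). The other Haus1 values in HA were 2.00 CPM in old replicate 1 and 3.99 and 3.05 CPM in young libraries. In input, 4 of 5 measured subunits had log2 differences above 0 (48.6% of all genes) and the median was 0.41. Of 10 measured regulators of Aurora kinases, 0 had an unadjusted p under 0.05 in HA, input or TE from limma, and the median log2 HA difference was -0.40.

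The 3 genes whose 8 values were most like those of Tpx2 were Car9, Stx5a and Gnpda2, out of 5304 other genes with a mean of at least 10 CPM in both tables. The measure was the root mean square difference of log2(CPM + 1), centred for each gene within a table, over the 8 libraries of 4 pools, and it was 0.18, 0.20 and 0.21 for these genes. Stx5a, for example, was at 284 and 425 CPM in old, against 109.8 and 129.5 CPM in young HA libraries. Of the other members, Cdca8 was the nearest to Tpx2, at rank 21 (0.27), and Incenp was the farthest of those ranked, at 2721 (0.85).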

How the data were processed

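RNA-Seq libraries from 4 pools of MII oocytes (8 libraries) were analysed. CPM are shares of a library, and the amount of RNA per oocyte was not measured. The authors trimmed reads (Trimmomatic 0.36), aligned them to GRCm38 (HISAT2), counted them per gene of GENCODE M11 with HTSeq (feature type gene, without regard to strand), and deposited signal values that are CPM after TMM normalization, HA and input apart. No column of per-sample values was left out (0). Reads were recovered from the steps of the values.

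The members, gene lists and tests were chosen with earlier results of these data known. Named genes were the 10 members, genes of the 4 lists with an unadjusted p under 0.05 in HA or TE (up to 3 a list), and the 3 genes most like Tpx2. The order of the augmin libraries was described after its values were seen.

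limma (lmFit, eBayes with trend) was run on log2(CPM + 1), two-sided, with a threshold of 0.05 and Benjamini-Hochberg adjustment over all genes. For TE, log2(HA CPM + 1) minus log2(input CPM + 1), the trend was set on mean expression. This was settled after both trends had been run. HA and input were paired by pool, being parts of the same lysate. Other pseudocounts (0.1 and 5 CPM), a filter (mean of at least 10 CPM), scalings, a replicate block, left-out pools and count tests (edgeR, DESeq2) were alternatives. GENCODE M21 covered 99.8% of gene identifiers of the HA table. Statistics used edgeR 4.0.16, DESeq2 1.42.0 and limma 3.58.1 in R 4.3.3, and values were handled with pandas 2.3.3 in Python 3.11.15. The labels do not say whether pools of an age shared animals. The p-values measure the spread between pools.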

Additional observations from a re-analysis of the deposited data

Results flagged for a closer look

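Birc5 (survivin) differed in opposite directions between the fractions. Both old pools lay above both young pools in HA and below them in input, and the log2 HA difference exceeded the log2 input difference by 1.30. The order in HA was lost when libraries were rescaled to the same sum or quantile normalized, where the log2 HA difference was 0.20 and 0.43. HA and input of a pool come from the same lysate. Tested as TE, this difference had an adjusted p of 0.758 from limma and of 0.653 in edgeR's interaction test, both above the threshold of 0.05.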

How the results depend on the processing

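Of 30 member results (10 genes in HA, input and TE), none passed an adjusted p of 0.05 under any alternative run, and 384 of 418 values kept their sign. Part of the 418 could not change sign. The replicate block, the filter on mean CPM, the variance trend on the mean ratio and limma's interaction test leave the log2 difference as it was. Limits are the 2 pools per age and the scaling of HA libraries, which shifted the median log2 HA difference of all genes from -0.14 to -0.68 when libraries had the same sum, and to 0.047 with the median log2 ratio. The cause of the changes below was not tested.

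With libraries rescaled to the same sum, the log2 difference reversed for Aurka (-0.53), Aurkc (-0.27), Bora (-0.23) and Ckap5 (-0.052) in HA, Ckap5 in input (-0.16) and Bora in TE (-0.42). After quantile normalization it reversed for Aurka (-0.41), Aurkc (-0.074), Bora (-0.13) and Ckap5 (-0.15) in HA, Ckap5 in input (-0.12), and Aurkb (0.65), Bora (-0.36) and Ckap5 (-0.030) in TE. With the median log2 ratio, Aurkc (0.0048) and Tacc3 (0.17) reversed in TE, with a pseudocount of 5 CPM Aurkb in TE (0.089), and in edgeR's interaction test Tacc3 in TE (0.0096). Leaving out 1 pool at a time, the ranges that included a reversal were -0.48 to 0.68 (Aurka) and -0.048 to 0.87 (Bora) in HA. They were -0.55 to 0.33 (Tpx2), -0.076 to 0.82 (Incenp), -0.22 to 0.65 (Cdca8), -0.020 to 0.78 (Bora) and -0.19 to 0.25 (Ckap5) in input. In TE they were -0.89 to 0.33 (Aurka), -0.96 to 0.18 (Aurkb), -0.83 to 0.89 (Bora) and -0.59 to 0.55 (Tacc3). The lone pool of an age is then assumed to vary like the others.

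The number of genes with an adjusted p under 0.05 in HA was 0 in limma, 295 in edgeR's likelihood ratio test and 508 in DESeq2, and 0 to 634 with a pool left out (393 without old replicate 1, 3 without old replicate 2, 0 without young replicate 1 and 634 without young replicate 2). In input it was 1, against 50 in the likelihood ratio test, 0 in the quasi-likelihood test, 114 in DESeq2 and 0 to 2 with a pool left out. In TE it was 0, and 0 to 13 with a pool left out (13 without old replicate 1). With the filter on mean CPM, Aurkb had no value in HA and TE. The members with both old HA values above both young ones were 5, and 1 each with the same sum and quantile normalization. With the replicate number as a block, 9 genes passed in HA and 5 in TE, none of them members. The correlation of same-numbered old and young pools, as deviations across genes, was 0.0786 in HA and 0.0269 in input. This cannot tell whether same-numbered pools share more than a number. HA and input of the same lysate also gave only 0.0060 between old pools and 0.107 between young pools.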

Other observations

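HA and input of a pool were taken from the same lysate. The difference between the 2 old pools in log2 HA was nearly unrelated to their difference in log2 input across the 8537 genes in both tables (Pearson's r = 0.0060), and between the 2 young pools r was 0.107. These are correlations across genes, which are not independent replicates. For Tpx2, the old pool with the higher HA level (843 CPM) also had the higher input level (276 CPM), and the same was the case in young pools (338 and 280 CPM). For Aurka the old HA values were 203 and 90.7 CPM, whereas the old input values were 169 and 177 CPM.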
